A study of Mus musculus with 15 samples.

Results

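The last step of the circadian night was examined by setting ribosome profiling of mouse liver at CT20 against the subjective dawn. The comparison used 6 of the 14 libraries with data. Both CT20 libraries stood on one side, and the 4 libraries titled CT00 and CT24 stood on the other. Circadian time (CT) counts hours of the internal day, with CT0 and CT24 at subjective dawn, so that the CT00 mice preceded the CT20 mice by 20 h and the CT24 mice followed them by 4 h. All mice were wild-type C57BL/6N males, 8-10 weeks old, kept in 12 h of light and 12 h of darkness and then in constant darkness for 24 h before the first were killed. The livers of 2 mice gave the 2 libraries of each time, from a piece of frozen tissue, and no drug or transgene is named. For the CT24 libraries a time field reads CT00 while the title gives CT24, and the title was followed. The comparison asks what ribosomes were bound to at the end of the subjective night, and what had changed by the start of the subjective day.

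In liver, the clock is a loop of transcription. BMAL1 (gene Arntl) with CLOCK or NPAS2 binds E-box sequences and drives the Per and Cry genes, the nuclear receptors Nr1d1 and Nr1d2, and the PAR bZIP factors Dbp, Tef and Hlf. PER and CRY proteins feed back on BMAL1 and CLOCK, NR1D1 and NR1D2 repress genes with RORE sequences, and the PAR bZIP factors and their repressor NFIL3 act through D-box sequences. Mice feed mainly in the dark, so the late night is also the passage from the fed to the resting liver, when glycogen, lipid and NAD metabolism shift. Ribosome profiling sequences the mRNA fragments that ribosomes protect from nuclease, and the counts thus reflect mRNA level and translation together.

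The libraries held from 40593197 to 59581901 counted reads. TMM factors ran from 0.812 in CT20 replicate 1 to 1.46 in CT00 replicate 1. Values below are counts per 1000000 reads (CPM) scaled by these factors, in the order CT20 replicates 1 and 2, then CT00 replicates 1 and 2, then CT24 replicates 1 and 2. The CT20 pair was the least alike of the 7 replicate pairs, with a correlation of log2 CPM of 0.970 and 271 transcripts that differed by more than 2-fold. CT20 replicate 2 held RNA of pancreatic acinar cells. Acinar markers summed to 5503 CPM there, against 7.91 in CT20 replicate 1 and 4.73 to 106 at dawn, and 40 of 17299 transcripts with over 50% of their scaled counts in that library were left out. They belonged to 39 genes, of which 28 were acinar markers. Just inside the threshold lay Klk1b11, Klk1b9 and Nupr1 with 73.5%, 70.4% and 55.3% of their scaled counts in that library. Just outside lay Klk1b4 with 42.0% and 2 transcripts of Sgip1 with 40.5%. CT20 replicate 1 stood apart in another way. Among 17023 transcripts with a mean of at least 10 coding sequence (CDS) counts, 704 had no CDS count there, against 1 in CT20 replicate 2 and 19 to 263 at dawn. Hepatocyte markers summed to 54099.8 and 64029 CPM at CT20 and 55357 to 65764 CPM at dawn.

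Ribosome binding fell from CT20 to dawn for B3galt1 and Nampt, the only calls of edgeR among 17259 transcripts at an adjusted p under 0.05. These 2 calls are 0.0116% of the transcripts, and the share called higher at dawn was 0%. B3galt1 (chromosome 2, 67565689 to 68122882, mm10) encodes a galactosyltransferase that builds glycan chains. It had 7.01 and 5.68 at CT20 and 0.827, 1.70, 2.26 and 1.44 at dawn (CPM), so that no dawn library reached either CT20 library. The fold was 4.14, with a log2 difference of -2.05 ± 0.29 (SE) and an adjusted p of 0.0169. Its mean was highest at CT20 and lowest at dawn among the 6 times of day, with 4.96 ± 0.573 (SD) at CT12 and 3.65 ± 0.747 at CT16.

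Nampt (chromosome 12, 32820335 to 32853369) encodes the rate-limiting enzyme of NAD salvage. Its values were 27.0 and 25.0 at CT20 and 11.6, 12.3, 13.7 and 13.0 at dawn, and the groups did not overlap. Nampt was 2.06-fold lower at dawn, with a log2 difference of -1.04 ± 0.17 and an adjusted p of 0.0484. Over the day its mean was 39.6 ± 4.18 CPM (SD) at CT12, 40.2 ± 1.68 at CT16, the highest, and 8.60 ± 1.60 at CT4, the lowest. With CT00 alone as dawn, the adjusted p was 0.0339 for B3galt1 and 0.0775 for Nampt, and with CT24 alone it was 0.656 for each. The log2 differences were -2.32 and -1.12 with CT00 alone and -1.78 and -0.96 with CT24 alone. The B3galt1 call was lost without CT20 replicate 1, CT00 replicate 1 or either CT24 library (adjusted p from 0.0538 to 0.277), and the Nampt call without any library but CT20 replicate 2 (adjusted p from 0.158 to 0.513). Over these fits the log2 difference of B3galt1 stayed between -2.36 and -1.83 and that of Nampt between -1.09 and -0.98.

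**Figure D1:**
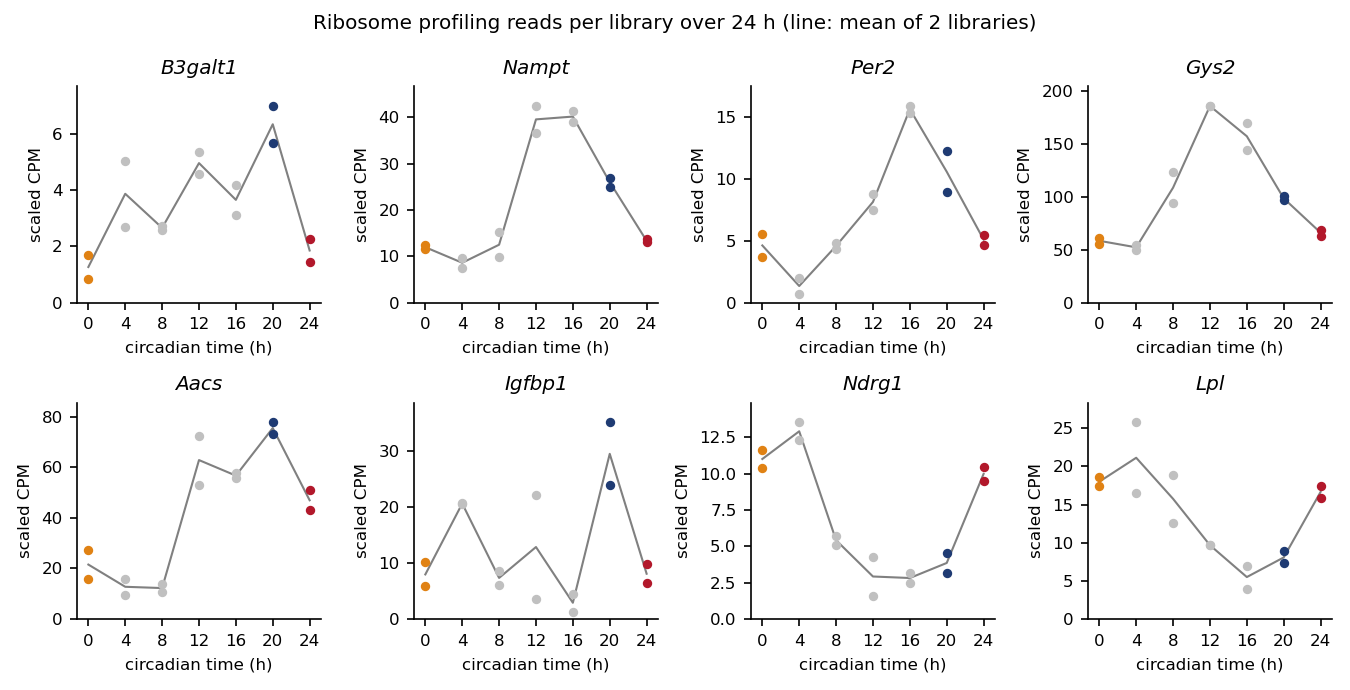
Scaled CPM in each library (points) and the mean of the 2 libraries (line) against circadian time in hours for 8 genes, each on its own axis from 0. CT00 is orange, CT20 blue, CT24 red and other times grey. B3galt1 and Nampt are the called genes, Per2, Gys2, Aacs and Igfbp1 were lower at dawn than at CT20 in every library, and Ndrg1 and Lpl were higher.

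No transcript was called higher at dawn by edgeR, although 578 were higher at an unadjusted p under 0.05. DESeq2, run on the same counts, called 20 higher and 39 lower. Without CT20 replicate 2, edgeR called 64 higher and 20 lower, with CT20 replicate 1 as the lone library of its time, and without CT20 replicate 1 it called 0 and 2. Because the test called so few, the other genes are described by their values. For each gene the transcript with most counts was taken, which gave 11708 genes. The 4 dawn libraries all lay below both CT20 libraries for 907 genes, 7.75%, and all lay above for 988 genes, 8.44%. At an unadjusted p under 0.05, 3.84% of genes (450) were lower and 3.68% (431) higher, while scaling by total counts, which moved the median of all genes by 0.42, gave 26 lower and 2112 higher. With 1 CT20 library left out fewer values have to separate, and 2225 genes lay lower and 2203 (18.8%) higher without CT20 replicate 1, and 25.9% and 28.3% without CT20 replicate 2. Counts of list members are read against these shares.

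Most repressors and outputs of the clock had lower values at dawn, but none passed the adjusted test in edgeR. Of 15 such genes tested, 9 (60%) had all dawn libraries below both CT20 libraries, none had them above, and 8 were lower at an unadjusted p under 0.05. Their median log2 difference was -0.74, while that of all genes was 9.19e-05. Without CT20 replicate 2 it was -0.42, with 10 genes below (66.7%) and 2 above (13.3%), where 25.9% and 28.3% of all genes were. DESeq2 called 3 lower (Per2, Per3 and Wee1, adjusted p from 0.0148 to 0.0313), and edgeR with the library code as covariate called Per2 (adjusted p = 0.0491). The list was chosen with rhythms of these data known, so the count is no independent support for a direction.

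Among the Period genes, which encode the core repressors, Per3 had 1.84 and 0.970 at CT20 and 0.321, 0.499, 0.489 and 0.440 at dawn. Its log2 difference of -1.67 ± 0.35 had an adjusted p of 0.153. Per2 had 12.2 and 8.94 at CT20 and 5.57, 3.68, 5.50 and 4.70 at dawn, a difference of -1.12 ± 0.26 (adjusted p = 0.224). All dawn libraries lay below CT20 for both genes. Per1 did not separate, with 1.17 and 2.89 at CT20 and 1.01, 1.43, 1.39 and 2.90 at dawn, since CT24 replicate 2 matched the higher CT20 library and CT20 replicate 1 lay within the dawn range. Cry2, whose protein acts with PER, had 6.41 and 7.31 at CT20 and 7.27, 6.58, 4.28 and 4.42 at dawn. Only the CT24 libraries lay below CT20 there, and the log2 difference was 0.01 for CT00 alone and -0.66 for CT24 alone.

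Of the nuclear receptors, Nr1d2 had 1.89 and 2.66 at CT20 and 0.928, 1.53, 1.35 and 0.546 at dawn and a difference of -1.09 ± 0.29, with no overlap. Nr1d1 had 1.43 and 1.72 at CT20 and 1.89, 1.98, 2.59 and 1.69 at dawn, a difference of 0.35 ± 0.34, and the groups overlapped in CT24 replicate 2. Of the PAR bZIP factors, Tef had 5.21 and 6.49 at CT20 and 3.17, 4.29, 4.46 and 4.73 at dawn and did not overlap, with -0.50 ± 0.20. Dbp had 0.622 and 1.86 at CT20 and 0.658, 0.901, 0.754 and 0.757 at dawn, and the CT20 libraries differed by more than the dawn libraries did. Without CT20 replicate 2 its log2 difference turned from -0.74 to 0.31. Hlf had 8.58 and 6.44 at CT20 and 6.28, 5.31, 7.71 and 6.44 at dawn, and the groups overlapped.

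Among the outputs, Wee1, a kinase that holds back entry into mitosis, had 2.75 and 2.16 at CT20 and 0.810, 0.933, 0.999 and 0.704 at dawn. Its difference was -1.51 ± 0.33 (adjusted p = 0.173), with no overlap. Usp2, a ubiquitin protease, had 5.24 and 4.96 at CT20 and 3.19, 2.32, 3.12 and 2.83 at dawn, and Noct, which encodes nocturnin, had 5.19 and 4.31 at CT20 and 3.26, 2.24, 2.39 and 2.89 at dawn. Both were lower in every dawn library, with log2 differences of -0.83 ± 0.21 and -0.82 ± 0.20. Bhlhe40, a repressor that competes for E-boxes, had 18.4 and 22.6 at CT20 and 14.5, 13.5, 15.9 and 15.5 at dawn, with a difference of -0.47 ± 0.19 and no overlap. Tspan4, which encodes a tetraspanin, had 25.7 and 25.8 at CT20 and 24.8, 20.7, 15.5 and 23.0 at dawn, and its difference of -0.30 ± 0.19 was under 2 SE although the groups did not overlap. Ciart, a repressor of BMAL1 and CLOCK, was near the limit of detection, with 0.239 and 0.384 at CT20 and 0.202, 0, 0.245 and 0.106 at dawn, and the groups overlapped.

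Over the day, 8 of these 15 genes had their highest mean at CT12, 6 at CT16 and 1 at CT8, while 13 were lowest at CT4. CT20 and dawn thus lay on the falling side of the course for most of them. The mean of Per2 went from 15.7 ± 0.397 at CT16 through 10.6 ± 2.33 at CT20 and 4.86 ± 0.880 at dawn to 1.34 ± 0.931 at CT4 (SD).

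**Figure D2:**
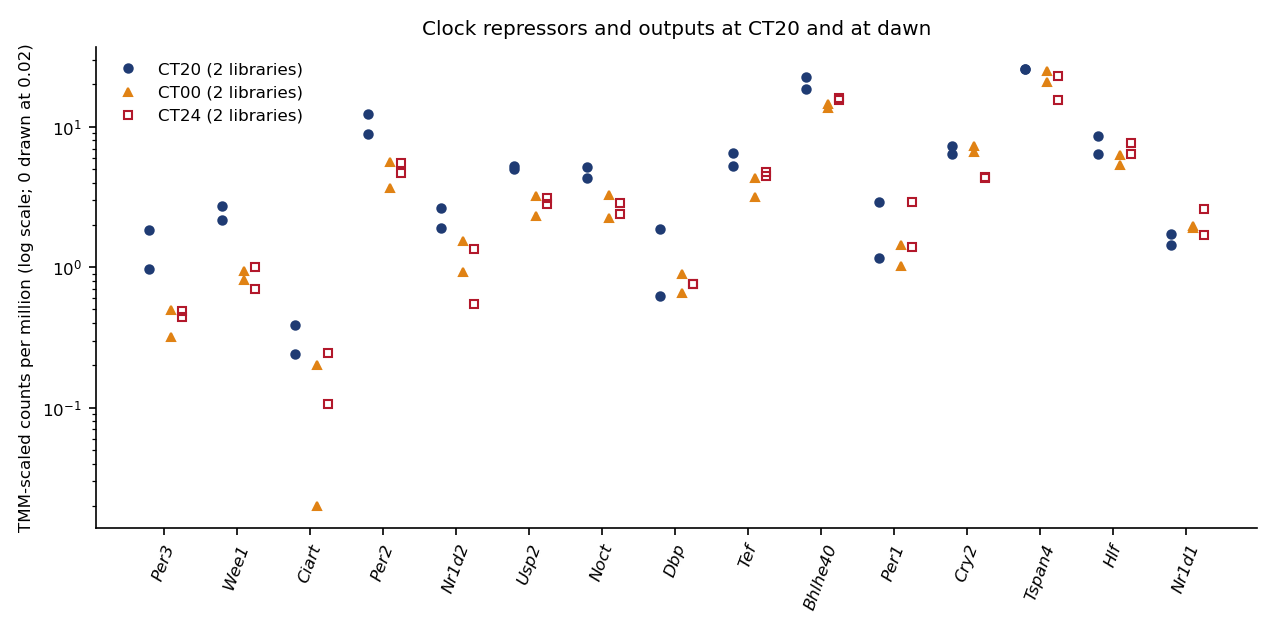
Scaled CPM on a log scale for each of 15 clock repressors and outputs, with 1 point for each library at CT20 (blue circles), CT00 (orange triangles) and CT24 (red open squares). A value of 0, in Ciart, is drawn at 0.02. In 9 of the 15 genes every dawn point lies below both CT20 points.

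The sequences before the start sites of these genes are shown where they hold the letters of an E-box or D-box, the elements through which the list was drawn up. The 250 bases before each start site were searched on both strands in RefSeq promoters (GRCm38.p6, the build called mm10) for CACGTG, which is its own reverse complement, and for TTANGTAA, read as TTACNTAA on the other strand. Of the 15 genes, 12 were matched by symbol. CACGTG was in front of 4 of them (Ciart, Per1, Tef and Tspan4) and TTANGTAA in front of Per3, while 6.02% and 2.06% of all 32851 promoters hold these letters. The list was counted by gene, with a match before any start site, and the shares by single promoter, so the units differ. Bhlhe40, Per2 and Wee1 are named only. The windows below run 5′ to 3′ on the strand of the gene, with the matched letters in capitals. Tef matched at 2 start sites. The windows of Per1, of Tspan4 and of Tef at 81811264 lie inside these genes, which begin at 69095108, 141475236 and 81802673. These windows thus precede later start sites and not the start of the gene. The matched letters begin at -205 and -158 bases from the start in Per3, at -127 and -138 in Tef, at -166 in Per1, at -116, -58 and -44 in Ciart and at -51 in Tspan4.
Per3, chr4:151044852-151044881, minus strand: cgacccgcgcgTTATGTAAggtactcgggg
Per3, chr4:151044805-151044834, minus strand: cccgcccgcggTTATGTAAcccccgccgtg
Tef, chr15:81802534-81802563, plus strand: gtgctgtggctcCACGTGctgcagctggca
Tef, chr15:81811264-81811293, plus strand: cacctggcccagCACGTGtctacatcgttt
Per1, chr11:69098771-69098800, plus strand: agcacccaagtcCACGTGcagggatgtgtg
Ciart, chr3:95882327-95882356, minus strand: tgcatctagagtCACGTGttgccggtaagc
Ciart, chr3:95882262-95882291, minus strand: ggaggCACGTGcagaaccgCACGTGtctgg
Tspan4, chr7:141476317-141476346, plus strand: cccccatggagcCACGTGcagagccacgag
Of the 5 genes with a match, Per3, Tef and Tspan4 did not overlap between the groups and Per1 and Ciart did, and the same share of the whole list, 60%, did not overlap. Nr1d2, Usp2 and Noct, which had no match, did not overlap either. A match describes these letters and not a bound site.

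In the list of activators and RORE-driven genes, 1 of 9 was below and 1 above without overlap, and the median log2 difference was -0.06. Without CT20 replicate 1 it was -0.26, with 5 of 9 below (55.6%) and 1 above, and without CT20 replicate 2 it was 0.14, with 2 below and 3 above. Arntl had 7.39 and 9.06 at CT20 and 8.08, 8.89, 8.83 and 6.69 at dawn, and Clock had 6.46 and 8.37 at CT20 and 8.27, 6.79, 9.54 and 7.52 at dawn, so that the groups overlapped in both. Npas2, the partner of BMAL1 that can replace CLOCK, had 0.765 and 0.619 at CT20 and 1.69, 1.90, 1.73 and 1.39 at dawn. It was higher in every dawn library, by 1.28 ± 0.53, with an adjusted p of 0.624. Rora, with 7.53 and 11.8 at CT20 and 11.0, 11.0, 9.74 and 7.92 at dawn, overlapped. So did Cry1, with 10.7 and 11.9 at CT20 and 9.78, 12.4, 8.81 and 8.01 at dawn, and Nfil3, with 12.8 and 9.86 at CT20 and 10.5, 12.1, 11.0 and 9.72 at dawn. E2f8, a repressor of cell cycle genes, and Bhlhe41, a relative of Bhlhe40, had differences of -0.36 ± 0.36 and -0.34 ± 0.58. Most Bhlhe41 counts over all libraries lay in the 3′UTR, 945 against 240 in the CDS, and with CDS counts alone its difference was -1.65. Among clock kinases and ubiquitin enzymes, 1 of 9 was above without overlap. Usp9x and Csnk1d, the members with most counts, had -0.15 ± 0.17 and -0.22 ± 0.17.

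Other genes low at dawn were chosen after their values were seen, as those with the lowest p. Aacs, which turns acetoacetate into acetoacetyl-CoA for lipid synthesis, had 77.8 and 73.2 at CT20 and 27.4, 15.7, 50.9 and 43.1 at dawn. Its difference of -1.25 ± 0.21 had an adjusted p of 0.0514, which was 0.0329 with the library code as covariate and 5.76e-05 in DESeq2. The difference was -1.81 for CT00 alone and -0.69 for CT24 alone. Lpin1, a phosphatidate phosphatase on the path to triglyceride, had 15.4 and 10.8 at CT20 and 6.19, 6.47, 7.46 and 7.59 at dawn, a difference of -0.92 ± 0.16 (adjusted p = 0.0618). Its relative Lpin2 had 21.5 and 21.6 at CT20 and 9.99, 15.5, 12.6 and 10.9 at dawn and a difference of -0.82 ± 0.18. All 3 genes lay lower in every dawn library than at CT20.

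Gys2, the glycogen synthase of liver, had 96.5 and 100.5 at CT20 and 55.6, 61.2, 63.4 and 68.7 at dawn, a difference of -0.67 ± 0.14 (adjusted p = 0.153). It was highest at CT12, with 186 ± 0.422 CPM (SD). Upp2, a uridine phosphorylase, had 113 and 122 at CT20 and 53.3, 59.3, 80.9 and 82.3 at dawn, Dennd4a, a regulator of Rab proteins, had 9.28 and 8.54 at CT20 and 4.89, 4.81, 5.61 and 5.23 at dawn, and Depp1 had 37.8 and 16.6 at CT20 and 9.82, 8.54, 15.0 and 8.03 at dawn. Nmrk1, which phosphorylates nicotinamide riboside on a route to NAD beside that of Nampt, had 5.43 and 4.46 at CT20 and 2.18, 2.40, 2.26 and 2.97 at dawn, with a difference of -1.01 ± 0.23. Adjusted p-values of these genes lay between 0.153 and 0.224, and none overlapped.

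Lists of metabolic genes were next. In fatty acid and triglyceride synthesis, 5 of 23 genes were lower without overlap and 1 higher, with a median log2 difference of -0.19. Besides Lpin1 and Lpin2, the lower genes were Thrsp, a lipogenic regulator, with 264 and 256 at CT20 and 193, 91.9, 125 and 119 at dawn, Gpam, an acyltransferase, with -0.49 ± 0.17, and Fasn, fatty acid synthase, with 750.5 and 938 at CT20 and 666, 499, 672 and 413 at dawn. Elovl5, an elongase, was higher by 0.38 ± 0.17. Scd1, the desaturase with most counts in the list, had -0.22 ± 0.24. The median of the list was -0.32 without CT20 replicate 1 and -0.04 without CT20 replicate 2, where 7 genes were below (30.4%) and 5 above (21.7%).

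Cholesterol synthesis and uptake had 6 of 25 genes lower without overlap and none higher. With CT20 replicate 2 left out, 8 were below (32%) and 3 above (12%). Insig1, a sterol-sensing protein, had 87.8 and 84.3 at CT20 and 72.4, 71.4, 68.7 and 65.0 at dawn, and Stard4, a sterol carrier, had 18.4 and 15.6 at CT20 and 12.2, 10.7, 14.3 and 15.1 at dawn. They differed by -0.31 ± 0.14 and -0.39 ± 0.15, with no overlap. Sc5d, a desaturase of the pathway, overlapped at -0.14 ± 0.15.

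For glucose output and glycogen, 5 of 23 genes were lower and none higher. When CT20 replicate 2 was left out, 5 were below and 5 above (21.7% each), and the median went from -0.13 to -0.04. Igfbp1, a secreted binder of insulin-like growth factors that insulin represses, had 23.9 and 35.2 at CT20 and 5.84, 10.1, 6.38 and 9.86 at dawn, a difference of -1.88 ± 0.45 (adjusted p = 0.241). Its mean was highest at CT20 and lowest at CT16, 2.92 ± 2.33. Slc37a4, the glucose-6-phosphate transporter, differed by -0.41 ± 0.16. Pck1 and Fbp1, enzymes of gluconeogenesis, had -0.35 ± 0.20 and -0.09 ± 0.13, and both overlapped. In the NAD list, 3 of 17 were lower, Nampt with Nnmt, which methylates nicotinamide (-0.45 ± 0.20), and Afmid of the kynurenine route (-0.27 ± 0.15). The list median was -0.02. Against CT20 replicate 1 alone, 3 were below and 3 above (17.6% each), where 25.9% and 28.3% of all genes were.

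Drug metabolism genes and targets of PAR bZIP factors had 7 of 34 lower without overlap and none higher, and 8 lower at an unadjusted p under 0.05. Por, the reductase that supplies electrons to cytochromes P450, had 148 and 142 at CT20 and 90.5, 106, 113 and 88.6 at dawn and a difference of -0.54 ± 0.16. Cyp17a1, a steroid hydroxylase, had 2.70 and 3.44 at CT20 and 1.25, 1.13, 1.39 and 0.686 at dawn. Cyp2f2 and Cyp2e1, with most counts, had -0.31 ± 0.14 and -0.24 ± 0.18. Cyp2a5, a near-identical relative of Cyp2a4 whose counts are therefore uncertain, had 124 and 191 at CT20 and 85.4, 77.4, 86.3 and 133 at dawn and overlapped in CT24 replicate 2. Alas1, which opens heme synthesis, had 286 and 168 at CT20 and 70.1, 133, 213 and 275 at dawn, so that its log2 difference was -1.16 for CT00 alone and 0.10 for CT24 alone. With CT00 alone, 11 of the 34 genes were lower at an unadjusted p under 0.05, where 4.51% of all genes were, and with CT24 alone 4, where 2.39% were. The median of the list was -0.17, with -0.25 without CT20 replicate 1 and a value near 0 without CT20 replicate 2, where 9 genes were below (26.5%) and 7 above (20.6%).

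Bile acid genes lay on both sides, with 3 of 23 lower and 4 higher without overlap. Cyp7a1, the rate-limiting enzyme of bile acid synthesis, had 46.0 and 54.5 at CT20 and 21.3, 20.9, 44.1 and 42.2 at dawn, with -1.25 for CT00 alone and -0.22 for CT24 alone. Nr1h4, the bile acid receptor, differed by -0.45 ± 0.13, and Fgfr4, the receptor that holds back Cyp7a1, by 0.54 ± 0.16. Slc27a5 and Slco1b2, with most counts, overlapped at -0.10 ± 0.15 and -0.14 ± 0.17. Fatty acid oxidation and ketogenesis showed 3 of 30 in each direction, with Fabp1, a fatty acid binding protein, at -0.18 ± 0.14. The urea cycle and amino acid list had 2 of 25 in each direction, with Cps1 and Ass1 at -0.02 ± 0.16 and -0.27 ± 0.17.

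Among glucocorticoid response genes, 4 of 16 were lower and none higher without overlap. Leaving out CT20 replicate 2, 5 were below (31.2%) and 4 above (25%), and those lower at an unadjusted p under 0.05 went from 4 to 1. The median was -0.29, with -0.43 without CT20 replicate 1 and -0.13 without CT20 replicate 2. The 4 genes were Lpin1, Dusp1, a phosphatase of MAP kinases, with 5.74 and 9.95 at CT20 and 4.22, 3.57, 2.53 and 4.75 at dawn, Tsc22d3, with 31.8 and 33.7 at CT20 and 23.3, 14.4, 21.6 and 26.9 at dawn, and Fkbp5, with -0.55 ± 0.27. Tat and Errfi1, with most counts, overlapped at -0.10 ± 0.19 and -0.33 ± 0.26. The list of heat shock chaperones had 7 of 24 lower and 1 higher. Hsp90aa1, an inducible HSP90, had 47.5 and 47.6 at CT20 and 33.0, 21.3, 37.5 and 33.9 at dawn, and Hspb1, a small heat shock protein, differed by -1.01 ± 0.31. Hsp90ab1 and Hspa8, with most counts, had -0.29 ± 0.17 and 0.47 ± 0.20. Without CT20 replicate 1 none of the list was lower at an unadjusted p under 0.05, against 5 with it, while the share over all genes was 1.81% and the median of the list -0.18. ER chaperones had 6 of 24 lower and none higher, and 23 of 24 estimates lay below 0 with a median of -0.19, but none was lower at an unadjusted p under 0.05. Hspa5 and P4hb, with most counts there, had -0.20 ± 0.25 and -0.01 ± 0.14.

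In iron and heme metabolism 5 of 22 genes were lower and 2 higher. Against CT20 replicate 2 alone, 6 were below (27.3%) and 3 above (13.6%), and those lower at an unadjusted p under 0.05 went from 5 to 1. Hamp, which encodes hepcidin, the hormone that limits iron export, had 197 and 235 at CT20 and 64.5, 128, 135 and 124 at dawn and a difference of -0.95 ± 0.25 (adjusted p = 0.273). The ferritin chains Fth1 and Ftl1 had -0.64 ± 0.20 and -0.56 ± 0.20, and only Ftl1 did not overlap. Hmox1, which degrades heme, had 5.88 and 6.52 at CT20 and 12.8, 7.56, 11.4 and 9.73 at dawn and was higher by 0.74 ± 0.22. Trf, transferrin, overlapped at 0.15 ± 0.16. Acute phase proteins had 4 of 23 lower, Hamp among them, and Serpina3k and C3, with most counts, had -0.30 ± 0.14 and 0.13 ± 0.17.

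**Figure D3:**
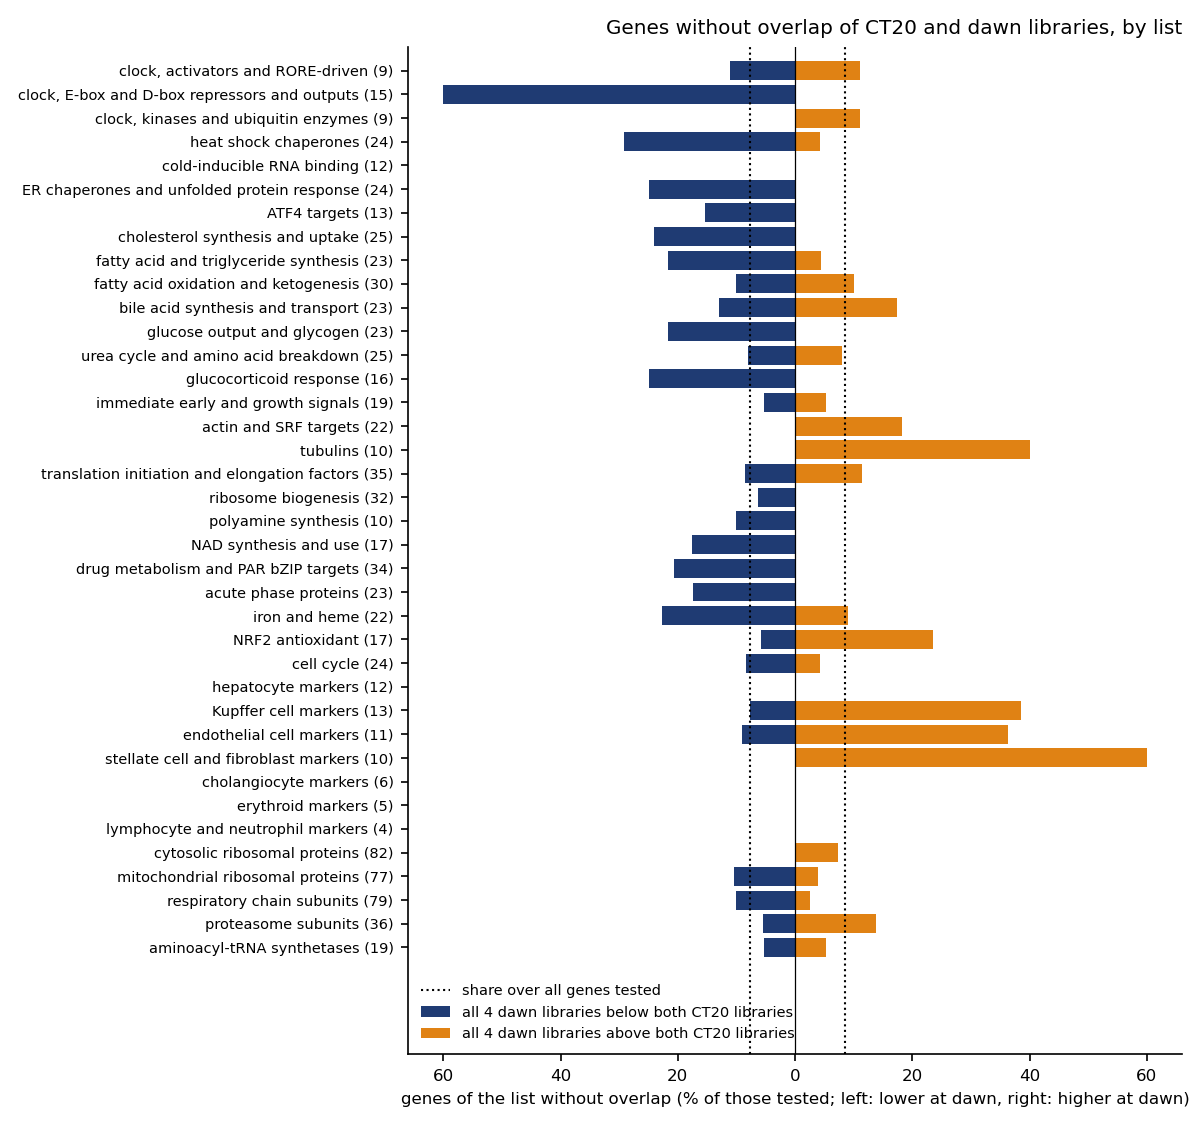
For each gene list, the percent of tested genes (number in parentheses) whose 4 dawn libraries all lay below (blue, left) or all above (orange, right) both CT20 libraries. Dotted lines mark the shares over all genes, 7.75% and 8.44%, which the clock repressors (60%, left) and the stellate cell markers (60%, right) pass by the widest margins.

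The genes described next were higher at dawn and were again chosen after their values were seen, as those with the lowest p. Markers of stellate, Kupffer and endothelial cells, given after them, were mostly higher in the same libraries. Estimates lay above 0 for all 10 stellate, 10 of 13 Kupffer and 9 of 11 endothelial markers, and their part in these values was not tested. Pxdn, a peroxidase that crosslinks collagen IV, had 5.28 and 6.62 at CT20 and 12.6, 13.6, 11.1 and 8.87 at dawn and a difference of 0.94 ± 0.18 (adjusted p = 0.129). Loxl4, a lysyl oxidase of the matrix, had 0.789 and 1.20 at CT20 and 10.3, 8.60, 5.71 and 4.56 at dawn, 6.89-fold higher with a difference of 2.78 ± 0.60 (adjusted p = 0.153). Ndrg1, a stress-responsive gene, had 3.16 and 4.56 at CT20 and 10.4, 11.6, 9.50 and 10.5 at dawn, and Lpl, lipoprotein lipase, had 7.29 and 8.86 at CT20 and 17.4, 18.6, 15.8 and 17.5 at dawn. They differed by 1.43 ± 0.28 and 1.10 ± 0.23, and both were lowest at CT16. Angptl8, an inhibitor of LPL that feeding induces, had 11.4 and 16.6 at CT20 and 52.2, 17.8, 32.9 and 37.2 at dawn, with CT00 replicate 2 close to the CT20 libraries. All libraries at dawn were higher than both at CT20 for each of these genes. The other 7 of the 12 were Abi3, Islr, Baiap2, Pdgfrb, Fgfrl1, H2-Eb1 and Cfp, with differences between 0.65 and 1.74 and adjusted p-values between 0.153 and 0.270.

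**Figure D4:**
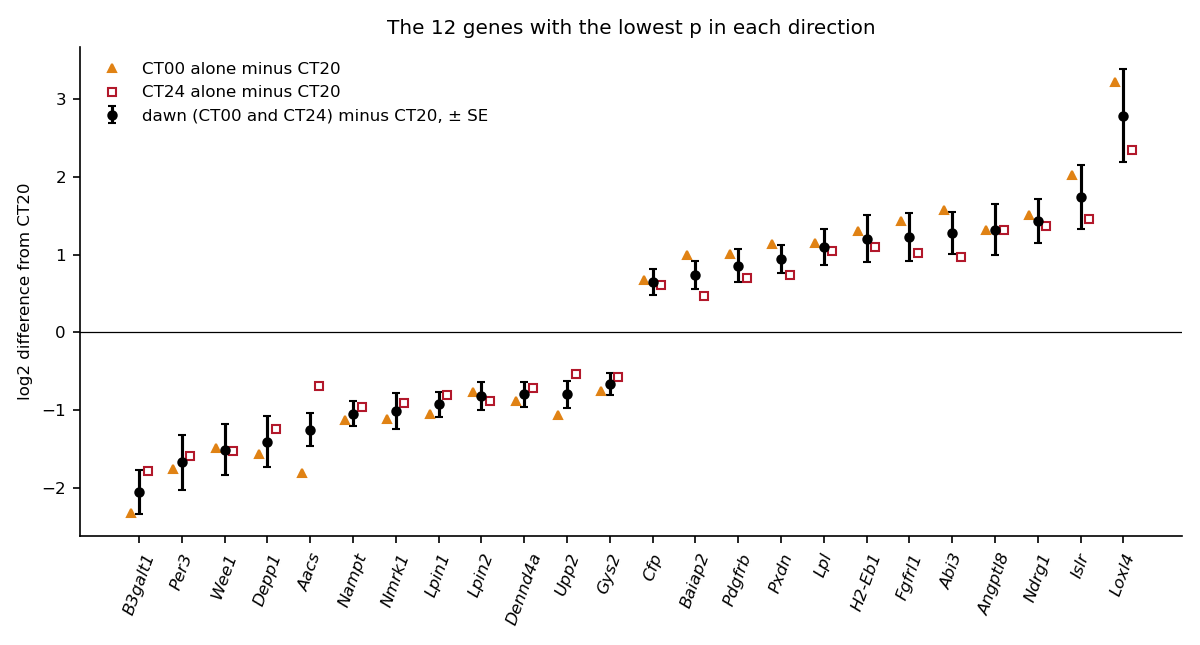
Log2 difference from CT20 for the 12 genes with the lowest p in each direction. Black points with bars give dawn (CT00 and CT24 together) ± SE, orange triangles CT00 alone and red open squares CT24 alone, both against the same CT20 libraries. CT00 and CT24 lie on the same side of 0 for all 24 genes, and they lie farthest apart for Aacs, at -1.81 and -0.69. The genes were chosen by the p of both times together, so the choice itself favours the same sign.

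Markers of stellate, Kupffer and endothelial cells had higher summed levels in every dawn library than at CT20. In such bulk tissue more cells of a type cannot be told apart from more ribosome-bound mRNA per cell. Stellate cell and fibroblast markers had 6 of 10 genes above without overlap and none below, all 10 estimates above 0 and a median of 0.56. Pdgfrb, the receptor of pericytes and stellate cells, had 3.06 and 3.44 at CT20 and 6.17, 6.95, 4.83 and 5.79 at dawn. Rgs5, a pericyte gene, had 2.20 and 2.39 at CT20 and 3.83, 4.68, 4.02 and 2.78 at dawn, and Col3a1, a fibrillar collagen, had 12.0 and 9.18 at CT20 and 25.8, 14.1, 14.3 and 15.3 at dawn. Ecm1 and Dcn, with most counts, differed by 0.38 ± 0.16 and 0.24 ± 0.13. The summed level of the list was 194 to 216 CPM at CT20 and 241 to 287 at dawn. With CT00 alone, 8 of the 10 were higher at an unadjusted p under 0.05, where 4.69% of all genes were, and with CT24 alone 1, where 2.44% were. With both times 6 were higher, and 3 without CT20 replicate 2, where 10.1% of all genes were.

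Kupffer cell markers, from the resident macrophages, had 5 of 13 above and 1 below, with a median of 0.37, which was 0.22 without CT20 replicate 2. Cd5l had 22.7 and 19.1 at CT20 and 36.7, 31.2, 34.0 and 34.2 at dawn, and Timd4 had 1.91 and 1.60 at CT20 and 3.07, 2.46, 3.04 and 4.42 at dawn. Csf1r, the receptor for macrophage growth factor, had 26.3 and 21.4 at CT20 and 36.5, 30.1, 35.6 and 32.3 at dawn, and Clec4f, with most counts, overlapped at 0.14 ± 0.18. The exception was the iron exporter Slc40a1, with -0.40 ± 0.17. Their sum ran from 167 to 200 CPM at CT20 and from 201 to 240 at dawn. Endothelial cell markers had 4 of 11 above and 1 below. Stab1 and Stab2, scavenger receptors of the sinusoid, had 0.33 ± 0.15 and 0.21 ± 0.15, and the sum was 212 to 242 CPM at CT20 and 246 to 281 at dawn. For each of these 3 lists CT20 replicate 2, the library with acinar RNA, held the lowest sum of the 6 libraries. Without that library, the dawn libraries all lay above CT20 for 6 of 10 stellate, 5 of 13 Kupffer and 5 of 11 endothelial markers, where 28.3% of all genes did. Beyond this the part of that library was not tested.

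Hepatocyte markers did not separate, with 0 of 12 in either direction, and Alb and Trf had -0.01 ± 0.18 and 0.15 ± 0.16. Cholangiocyte markers, 6 tested, also had none, with Spp1 and Sox9 at -0.03 ± 0.21 and 0.75 ± 0.34. All 5 erythroid markers tested had estimates below 0 with overlap, and Alas2 and Hbb-bs had -0.32 ± 0.19 and -0.04 ± 0.35. Of 4 lymphocyte and neutrophil markers none separated, with Ptprc and S100a8 at 0.33 ± 0.30 and -1.65 ± 0.85, and Camp had no count in the 6 libraries. Of the acinar markers none was tested, as 28 were left out and 8 lay under the minimum count.

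Among tubulins, 4 of 10 were above and none below. Tuba4a had 82.5 and 91.3 at CT20 and 129, 111, 133 and 118 at dawn and Tubb2a 37.2 and 45.2 at CT20 and 58.2, 53.6, 80.6 and 57.9 at dawn, with differences of 0.50 ± 0.13 and 0.59 ± 0.25. Counts of such near-identical genes are uncertain. The list of actin and its SRF targets had 4 of 22 above and none below, with Actb at 0.26 ± 0.14 and Myh9 at 0.05 ± 0.17. Against CT20 replicate 1 alone, 6 of the 22 were above (27.3%) and 5 below, and the median went from 0.15 to 0.07. NRF2 targets, which guard against oxidants, had 4 of 17 above and 1 below. Against CT20 replicate 1 alone, 7 were above (41.2%) and 3 below, and without CT20 replicate 1 those higher at an unadjusted p under 0.05 went from 4 to 1. Gclc and Nqo1 were higher by 0.36 ± 0.15 and 0.59 ± 0.27, while Prdx1 and Osgin1, with most counts, overlapped at -0.23 ± 0.13 and 0.02 ± 0.23.

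Cytosolic ribosomal proteins had 6 of 82 (7.32%) above without overlap and none below, with 64 estimates above 0 and a median of 0.18. At an unadjusted p under 0.05, 10 were higher. Without CT20 replicate 1 there were 2, where 1.92% of all genes were higher, and without CT20 replicate 2 there were 20, where 10.1% were. Against CT20 replicate 1 alone, 42 of the 82 (51.2%) lay above without overlap, where 28.3% of all genes did. With CT00 alone 28 were higher at an unadjusted p under 0.05, where 4.69% of all genes were, and with CT24 alone 1, where 2.44% were. The median was 0.25 for CT00 alone and 0.05 for CT24 alone, and it was 0.02 without CT20 replicate 1 and 0.34 without CT20 replicate 2. Rpl4 and Rpl8 had 0.03 ± 0.19 and 0.28 ± 0.15, and Rpsa, with 3.75 and 8.46 at CT20 and 10.7, 8.40, 9.89 and 11.5 at dawn, was lowest in CT20 replicate 1. Translation factors had 3 of 35 below and 4 above. Eef2, the factor that moves the ribosome along, had 142 and 222 at CT20 and 294, 271, 242 and 244 at dawn and did not overlap, and Eef1a1 overlapped at 0.15 ± 0.23. Pabpc1, the poly(A) binding protein, was higher by 0.63 ± 0.19, and Eif4ebp3, an inhibitor of cap-dependent initiation, differed by -0.95 ± 0.29. Ribosome biogenesis had 2 of 32 below, with Ncl and Mybbp1a at -0.37 ± 0.17 and -0.23 ± 0.14, and aminoacyl-tRNA synthetases had 1 of 19 each way, with Aars and Eprs at -0.13 ± 0.15 and -0.08 ± 0.17.

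The remaining lists had few members apart. Mitochondrial ribosomal proteins had 8 of 77 below and 3 above, with Mrpl14 and Mrpl12 at -0.03 ± 0.19 and -0.00 ± 0.20. Respiratory chain subunits had 8 of 79 below and 2 above, with Atp5b and Atp5a1 at -0.08 ± 0.13 and -0.05 ± 0.13. Proteasome subunits had 2 of 36 below and 5 above, with Psmb4 and Psmb6 at -0.02 ± 0.13 and -0.02 ± 0.13. In the ATF4 list, 2 of 13 were below. They were Asns, asparagine synthetase, with 0.980 and 2.99 at CT20 and 0.405, 0.531, 0.510 and 0.211 at dawn, and Psat1, of serine synthesis, with 0.478 and 0.535 at CT20 and 0.169, 0.209, 0.183 and 0 at dawn, while Cth and Atf5 overlapped at 0.33 ± 0.20 and 0.25 ± 0.22. The higher Asns value was that of CT20 replicate 2, the library with acinar RNA, whose part was not tested. Psat1 was near the limit of detection. Cell cycle genes had 2 of 24 below, Wee1 among them, and 1 above, with Ccnd1 and Ccnd3 at -0.20 ± 0.29 and 0.32 ± 0.24. Immediate early and growth genes had 1 of 19 each way, with Igf1 at -0.33 ± 0.16 and Mcl1 at -0.03 ± 0.15. Polyamine genes had 1 of 10 below, with Oaz1 and Azin1 at 0.05 ± 0.29 and -0.40 ± 0.16. The cold-inducible list had 0 of 12, with Sfpq and Srsf5 at -0.01 ± 0.15 and -0.29 ± 0.22.

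The position of reads along the mRNA was compared last. The 5′UTR share of counts was 9.74% and 6.30% at CT20 and 8.01%, 7.55%, 7.46% and 6.56% at dawn. The CT20 libraries thus held both the highest and the lowest share, and the means of 8.02% ± 2.43 and 7.40% ± 0.611 (SD) did not separate (exact permutation test over libraries, two-sided p = 0.733). The smallest p that 2 against 4 libraries can give is 0.0667. The CDS held 91.7% ± 2.33 and 92.2% ± 0.610 (exact p = 0.733), and the 3′UTR 0.301% ± 0.102 and 0.365% ± 0.0275 (exact p = 0.267). Adjusted over the 3 regions, each p was 0.733.

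On the log2 scale, 5′UTR counts over CDS counts were tested in limma for 7639 transcripts. No transcript passed at an adjusted p under 0.05, a share of 0%, while 425 were higher and 114 lower at an unadjusted p under 0.05. Without CT20 replicate 2 the same test called 489 higher and 47 lower, in a fit that rests on CT20 replicate 1 alone at that time. Without CT20 replicate 1 it called none, and 83 were higher and 25 lower at an unadjusted p under 0.05. The 5 genes with the lowest p, chosen after their values were seen, were Glb1, Podxl, Slc30a9, Tmppe and Ccar1, with ratios higher at dawn. The 5′UTR of Slc30a9, a zinc transporter, had 1 and 10 counts at CT20 and 68, 68, 42 and 88 at dawn, a log2 difference of 4.03 ± 0.72 with an adjusted p of 0.610. That of Podxl, a sialomucin of vessels, had 0 and 2 counts at CT20 and 18, 32, 12 and 23 at dawn. Glb1, a lysosomal galactosidase, had 0 and 2 counts against 18, 11, 18 and 17. Tmppe overlaps Glb1 on chromosome 9, so its counts are not independent of those of Glb1. In each of these genes CT20 replicate 1 was the lowest of the 6 libraries. That library had no 5′UTR count for 1021 of the 7639 transcripts, against 3 in CT20 replicate 2 and 10, 195, 8 and 624 at dawn. The median of the 1021 was 14 counts in CT20 replicate 2, and 1 of them was at 0 there too. For B3galt1 and Nampt the log2 difference of the ratio was -0.83 ± 1.19 and 0.42 ± 1.44, with adjusted p-values of 0.952 and 0.975.

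**Figure D5:**
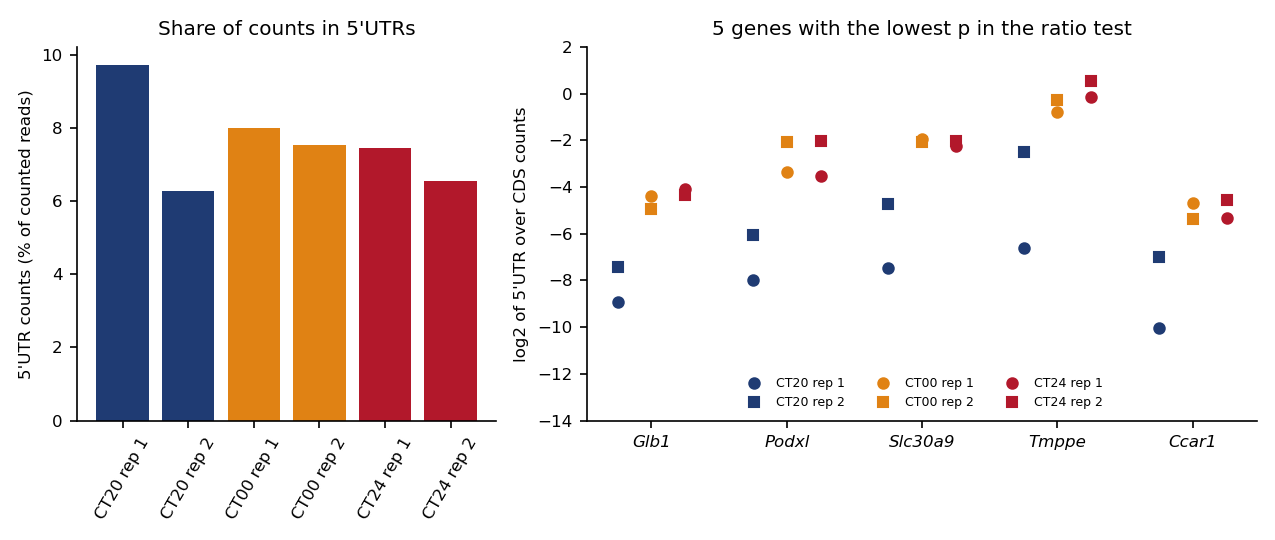
Left, 5′UTR counts as percent of all counted reads in each library (bars from 0). Right, log2 of 5′UTR over CDS counts, each with 0.5 added, in the 6 libraries for the 5 genes with the lowest p in the ratio test, with circles for replicate 1 and squares for replicate 2. CT20 replicate 1 has the highest share on the left, 9.74%, and the lowest ratio for each gene on the right.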

How the data were processed

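Livers were profiled at 6 times of day, every 4 h, and the 14 libraries all entered the fit. The authors deposited whole-number read counts per RefSeq transcript, split into 5′UTR, CDS and 3′UTR. Their processing notes name FastQC, Bowtie2 2.1.0.0, SAMtools 0.1.19.0 and mm10. Their methods describe exact matches to the genome and the use of reads with 1 alignment position, so reads common to paralogs may be lost, while isoforms and overlapping genes may share reads.

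The 3 regions were summed. Of 28167 transcripts, 27836 were named. Those with a mean of at least 10 counts were kept, and 40 with over 50% of their TMM-scaled counts in CT20 replicate 2 were left out. edgeR 4.0.16 (R 4.3.3) fitted a quasi-likelihood model with 7 groups, and the mean of CT00 and CT24 was tested against CT20, two-sided, with Benjamini-Hochberg adjustment. The standard error is the log2 difference over the root of F. The ratio of 5′UTR to CDS, with 0.5 added and both regions averaging 10 counts or more, was tested in limma 3.58.1, and region shares by exact permutation over libraries (Python 3.11, scipy 1.17.1). DESeq2 1.42.0, other scalings, filters, groupings and left-out libraries were tried. Scripts were tested on simulated data. With 2 libraries at CT20, precision is limited. Counting without molecular identifiers does not separate PCR copies, and p-values measure the spread between these libraries.

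By rule, the named genes were the 12 with the largest change in each direction among calls, every gene of the first 2 clock lists, and for each other list up to 4 called members or the 2 with most counts. Other members are named after their values were seen, and a few members that the rule names are not reported here. The libraries, the rule, the lists and the genes were chosen with earlier results of these data known. All nonzero counts of CT16 replicate 2 were even, and halving them was tried after seeing the data.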

Additional observations from a re-analysis of the deposited data

Results flagged for a closer look

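For 10 of 143 values tested, 1 of the 4 dawn libraries stood apart, with a gap to its nearest neighbour that passed Dixon's critical value. Chance alone marks about 1 in 20 such groups. The gap was 0.937 of the range for Ncl, 0.928 for Psmb6, 0.926 for Dnaja1 and 0.900 for Col3a1. It was 0.855 for Srsf5, 0.843 for Hamp, 0.841 for Fau, 0.841 for Cyp2a5, 0.834 for Slc27a5 and 0.830 for Tubb2a.

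The transcripts left out of the tests summed to 5549 CPM in CT20 replicate 2, against 9.09 in CT20 replicate 1 and 5.14 to 111 at dawn. Most of their genes were pancreatic acinar markers.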

How the results depend on the processing

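The 2 transcripts called lower at dawn became 11 with only the 6 libraries in the fit, 39 in DESeq2, and 6 with a minimum mean of 1 or of 100 counts. They became 1 with total counts, upper quartile scaling, the Mup transcripts left out or the CT20 replicate 2 transcripts left in, and 0 with CDS counts or CT24 alone. The 0 transcripts called higher became 4 with the 6 libraries, 20 in DESeq2, 2 with the library code as covariate, 3 with a minimum mean of 1 and 11 with total counts. When 1 library was left out, 0 to 20 were called lower and 0 to 64 higher, and 0 to 536 transcripts in the ratio of 5′UTR to CDS. The upper end was reached without CT20 replicate 2 in each case, and the cause was not tested. The difference in region shares ran from -2.34 to 1.10 points in the 5′UTR, from -1.09 to 2.21 in the CDS and from -0.00752 to 0.137 in the 3′UTR, with the sign turned without CT20 replicate 1.

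Same-numbered libraries correlated in their deviations at -0.157 to 0.400 over 21 pairs of times, over 0.1 in 7. Among CT00, CT20 and CT24 the range was 0.0335 to 0.386, over 0.1 in 2 of 3, with the 0.386 between CT20 and CT24. The main fit did not use the numbers as a pairing, and the source of these correlations was not tested. With the replicate block, 3 transcripts were lower, Aacs (adjusted p = 0.00397) beside B3galt1 and Nampt, and 0 higher, and 0 passed in the ratio.

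Of 3308 fits of 138 chosen genes under 24 alternatives, 9 turned in sign. Cry2 and Ptprc became 0.013 and -0.017 with CT00 alone, and Atf5, Ass1 and Alas1 became -0.060, 0.013 and 0.10 with CT24 alone. When 1 library was left out, Dbp ran from -1.26 to 0.31, Csnk1d from -0.43 to 0.047, Ass1 from -0.49 to 0.0084 and Cyp2e1 from -0.49 to 0.090. In 89 other fits an estimate within 1 SE of 0 changed sign. Scaled estimates were read relative to the median of all genes.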

Other observations

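Of the 450 genes lower at dawn at an unadjusted p under 0.05, 52.9% had their highest mean of the day at CT20, where 17.0% of all genes did. Of the 431 higher genes, 60.1% had their lowest mean at CT20, where 18.5% of all genes did. The same CT20 libraries chose these genes, so the shares are a description.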
